A study of Mus musculus with 9 samples.

Results

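Npas1, Npas2 and Npas3, 3 of the 21457 features measured in adult mouse spinal cholinergic nuclei, were described over 21 clusters of neurons. They were chosen by gene name and by level: Npas1 and Npas3 were selected on their high corrected counts in skeletal motor neurons (MNs) of these same nuclei, and Npas2 was taken beside them. Levels by cluster and by class are therefore a description here, without a test, and tests were kept for comparisons between regions and between pools of mice. GFP+ nuclei were sorted from Chat-IRES-Cre::Sun1-sfGFP mice aged 8 weeks, which carried 1 copy each of the Cre and of the nuclear envelope tag, and every group shared this genotype with no treatment. The mice came in 3 pools of 4 animals: replicate 1 held 2 males and 2 females, replicate 2 held males and replicate 3 held females. Each pool gave a cervical, a thoracic and a lumbar/sacral library, so the 9 libraries form 3 regions of 3, the regions of a replicate share their mice, and sex cannot be told apart from the pool. Because the tag is switched on by Cre driven from Chat and stays on for life, the sort also took cells that had used Chat earlier, and the 16042 nuclei described are those that the authors then typed as cholinergic. They comprised 5054 skeletal MNs in clusters S1 (Type 3 MNs, 1528 nuclei), S2 (alpha MNs, 1285) and S3 (gamma MNs, 2241), 5613 visceral MNs in V1 to V10 and 5375 interneurons in I1 to I8.

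The 3 genes encode transcription factors of the bHLH-PAS family, in which a basic helix-loop-helix contacts DNA and paired PAS domains hold a partner protein. NPAS1 and NPAS3 are neuronal members that pair with the broadly expressed partners ARNT and ARNT2, and Npas1 is best known as a marker of a class of inhibitory neurons in the forebrain. NPAS2 is the nearest relative of CLOCK: paired with BMAL1, the product of Arntl, it drives circadian genes such as Per1, Per2, Cry1 and Cry2, whose products feed back on it.

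The genes differ greatly in size. In the GENCODE annotation of GRCm38, Npas1 lies on the minus strand at chr7:16455721-16477728 and spans 22.0 kb, Npas2 lies on the plus strand at chr1:39193731-39363236 and spans 169.5 kb, and Npas3 lies on the plus strand at chr12:53248677-54072175 and spans 823 kb. Exons make up 13.7% of the Npas1 span, 2.83% of the Npas2 span and 0.729% of the Npas3 span. Reads over introns were counted too, so most of the sequence that could give a read from Npas3 is intronic. The span of Npas3 also holds the antisense genes 1700030L22Rik and 1700060O08Rik, which are separate features of the matrix. The promoters of Npas1 and Npas3, the members that were high in the same class, are shown with that of Npas2 for contrast. They are RefSeq windows of GRCm38.p6 from 250 bases before to 50 after the start of the gene, written 5′ to 3′ along the gene, with capitals for ACGTG, the core bound by many bHLH-PAS pairs, and for the GC box GGGCGG, each on either strand.
Npas1, chr7:16476731-16477030, minus strand: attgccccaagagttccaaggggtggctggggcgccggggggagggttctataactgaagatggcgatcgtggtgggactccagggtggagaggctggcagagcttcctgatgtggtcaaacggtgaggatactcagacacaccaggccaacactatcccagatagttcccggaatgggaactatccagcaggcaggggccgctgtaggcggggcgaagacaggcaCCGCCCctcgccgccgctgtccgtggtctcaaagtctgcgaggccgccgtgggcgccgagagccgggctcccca
Npas2, chr1:39194022-39194321, plus strand: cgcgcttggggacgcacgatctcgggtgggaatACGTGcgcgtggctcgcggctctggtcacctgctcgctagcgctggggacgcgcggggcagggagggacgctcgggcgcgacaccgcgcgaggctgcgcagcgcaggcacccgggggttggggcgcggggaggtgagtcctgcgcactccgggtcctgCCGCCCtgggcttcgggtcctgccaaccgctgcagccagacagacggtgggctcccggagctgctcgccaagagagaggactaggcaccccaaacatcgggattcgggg
Npas3, chr12:53248182-53248481, plus strand: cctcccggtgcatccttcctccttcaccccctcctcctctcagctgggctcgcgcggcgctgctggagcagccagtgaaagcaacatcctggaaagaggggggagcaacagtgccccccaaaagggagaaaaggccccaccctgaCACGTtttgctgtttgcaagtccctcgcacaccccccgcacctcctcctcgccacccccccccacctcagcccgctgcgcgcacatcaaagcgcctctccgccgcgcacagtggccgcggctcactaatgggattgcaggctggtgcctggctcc
The ACGTG core was found once in the Npas2 window and once in the Npas3 window, and not in that of Npas1, while 19.6% of 32851 promoter windows of this length held it. None of the 3 windows held CACGTG, the palindrome that contains ACGTG and is bound by CLOCK and NPAS2 with BMAL1, which 7.15% of all windows held. A GC box was found once in the Npas1 window and once in that of Npas2, as in 35.7% of all windows. The windows held 64.3%, 72.7% and 66.3% G and C in the order Npas1, Npas2 and Npas3, against a median of 52.7%. GENCODE and RefSeq place the starts of these genes at different bases, so a window here is 1 of several possible promoters.

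A level is the sum of corrected counts over a library's nuclei of a cluster or class, scaled to 1000000 (CPM), and a share is the percent of nuclei with at least 1 corrected count, as a mean over libraries unless pooled nuclei are named. Library medians of the total per nucleus ran from 4712 to 16127, so shares were also given after thinning each nucleus to 4600 corrected counts. The class labels went with their markers: Tns1, Chat, Prph and Isl1 together gave 626 to 1041 CPM in skeletal MNs, where visceral MNs had 320 to 451 CPM and interneurons 165 to 246 CPM. None of the markers listed for any class was at 0 in all libraries of that class. The region labels of 2 libraries went against their Hox genes, which mark position along the cord. The library labelled cervical replicate 2 had 9.68 CPM of Hoxa9 and 73.3 CPM of Hoxc5, beside 9.04 and 9.35 CPM of Hoxa9 and 84.2 and 85.3 CPM of Hoxc5 in thoracic replicates 3 and 1. The library labelled thoracic replicate 2 had 0.507 CPM of Hoxa9 and 13.9 CPM of Hoxc5, beside 0.213 and 0.412 CPM of Hoxa9 and 22.5 and 25.4 CPM of Hoxc5 in cervical replicates 3 and 1. Hoxd10 and Hoxc11 were above 0 in the 3 lumbar/sacral libraries alone. Labels were kept as given, the comparison of lumbar/sacral with the other regions pools both, and most regional differences are also given without these 2 libraries or without replicate 2, which holds both, while levels by cluster include them. Across libraries, 24 cell barcodes occurred in more than 1.

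Npas1 was a gene of 2 of the 3 skeletal clusters. Its level was 119.7 ± 22.0 CPM (SD, n = 9 libraries) in S1 and 119 ± 26.9 CPM (n = 9) in S3, with Npas1 in 63.8% and 62.5% of nuclei. The S2 alpha MNs held 22.0 ± 26.9 CPM (n = 9) and Npas1 in 11.6% of nuclei. The 18 clusters of visceral MNs and interneurons held 0 to 2.62 CPM, and 0 to 2.00% of their nuclei had a corrected count. S1 and S3 did not differ beyond their spread, with S1 the higher in 4 of 9 libraries, and S3 was above S2 in 9 of 9 libraries. Below S2 no cluster differed from its neighbour in the order by more than the larger of their SDs.

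Npas1 was not detected in 3 visceral clusters. No nucleus of 557 in V7, 247 in V9 or 189 in V10 had a corrected count, which allows a share of up to 0.539%, 1.21% and 1.59% respectively, for counting error only. Over whole classes, Npas1 was found in 48.5% of skeletal MNs, 0.985% of visceral MNs and 1.21% of interneurons, whose nuclei had median totals of 7393, 7519 and 6986. Its level in visceral MNs was 1.51% of that in skeletal MNs, where the skeletal marker Tns1 stood at 8.21% and Npas3 at 11.2%. In interneurons the level of Npas1 was 1.78% of the skeletal one and that of Tns1 1.55%. No class here is known to lack Npas1, so whether the low shares are expression or free RNA was not tested, and no expression is read from them. After thinning, Npas1 was found in 42.5% of S1, 43.2% of S3 and 8.86% of S2 nuclei, and in 0.660% of visceral MNs and 0.565% of interneurons.

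**Figure D1:**
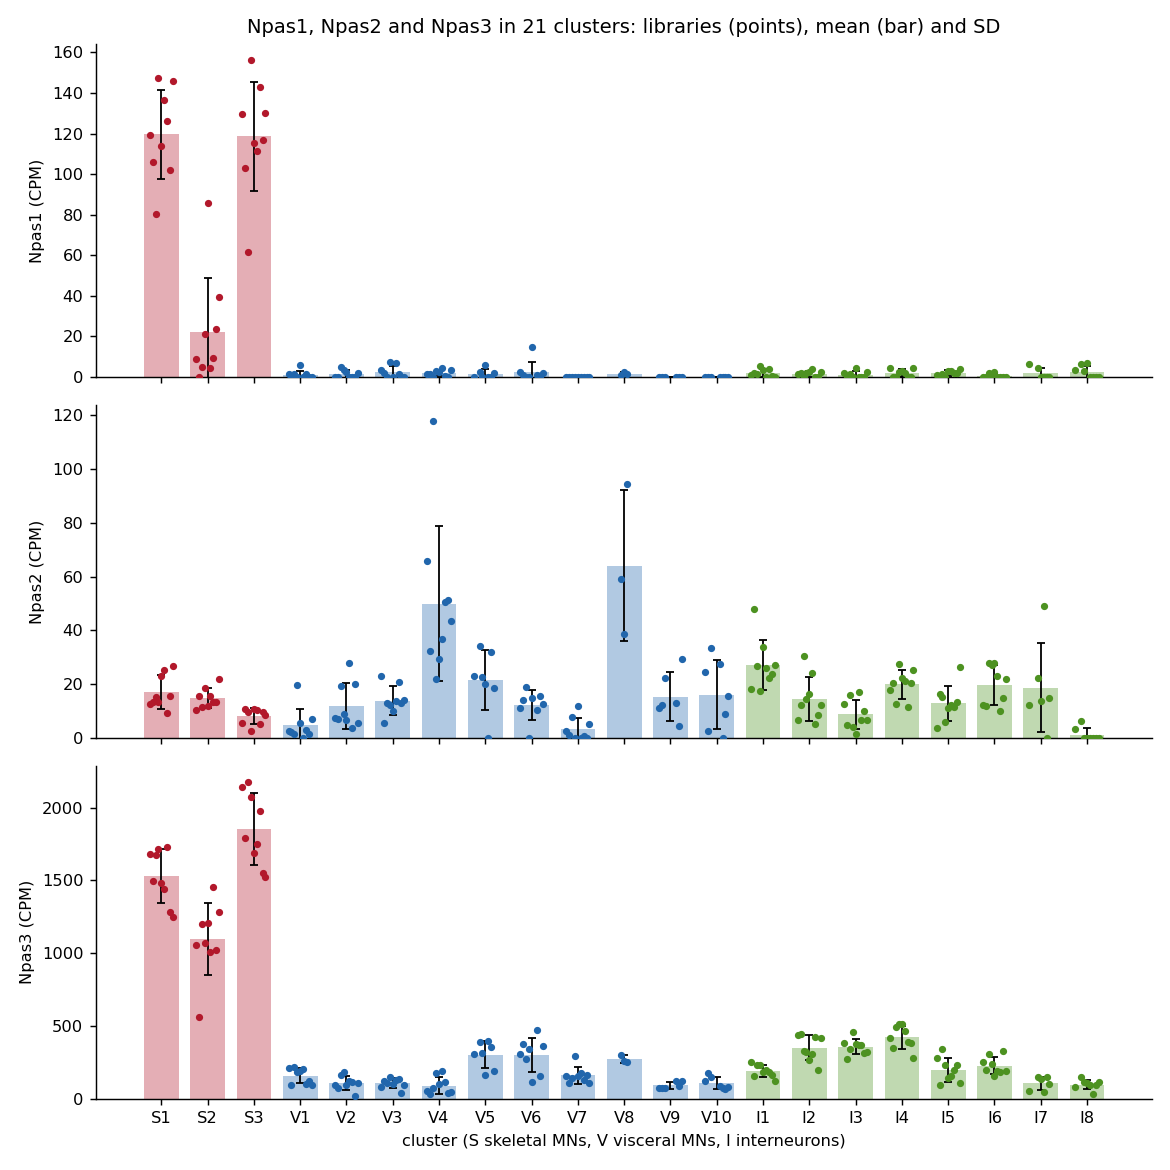
Levels of Npas1, Npas2 and Npas3 (CPM, linear axes that start at 0 and differ between panels) in the 21 clusters. Points are libraries with at least 10 nuclei of the cluster, bars the mean and lines the SD. Npas1 stands near 120 CPM in S1 and S3 and under 3 CPM in every V and I cluster, Npas2 is highest in V8 and V4, and Npas3 has means of 1096 to 1852 CPM in the S clusters and at most 423 CPM elsewhere.

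By library, the level of Npas1 over all skeletal MNs ran from 51.2 CPM in cervical replicate 3 to 127 CPM in lumbar/sacral replicate 1, with a median of 91.3 CPM. In visceral MNs it ran from 0.543 to 2.93 CPM and in interneurons from 0.516 to 3.34 CPM. The lowest skeletal library was thus above the highest library of both other classes, and how many of all features separate in this way was not counted. The skeletal level less the mean of the other classes was 3.86 ± 0.37 (log2 of CPM + 5, SD, n = 9), or 14.5-fold on that scale. This placed Npas1 at rank 9 of 11292 features by that difference, of which 5.54% were higher in skeletal MNs by at least 1 on the log2 scale. Since the rule used this contrast, nothing is read from the rank or from the separation of the libraries.

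Within a nucleus Npas1 gave few counts. In S1, 41.0% of nuclei had none, 36.8% had 1 corrected count, 16.6% had 2 and 5.56% had 3 or more. S3 was alike, with 41.6%, 37.1%, 15.1% and 6.16%. In S2, 92.7% had none. Splitting S1 nuclei by Npas1 gave near equal levels of other genes: over pooled nuclei, Npas3 was 1507 CPM in those with Npas1 and 1545 CPM in those without, and Gpr149, a marker of Type 3 MNs, was 417 and 413 CPM. S3 nuclei split in the same way had 1852 and 1871 CPM of Npas3, and 440 and 447 CPM of Nrp2, a gamma marker.

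The 94 of 1285 S2 nuclei with Npas1 had lower levels of alpha markers than the rest of S2. Pooled over libraries, the alpha markers Rbfox3, Sv2b and Glis3 stood at 132, 212 and 47.2 CPM in S2 nuclei with Npas1 and at 281, 349 and 158 CPM in those without. The Type 3 markers Gpr149 and Rreb1 stood at 195 and 169.8 CPM against 61.3 and 75.9 CPM, and Npas3 at 1401 CPM against 1048 CPM. Stk32a, the other alpha marker, differed less, at 306 CPM against 385 CPM. The gamma markers Plekhg1, Esrrg and Gfra1 stood at 44.5, 1225 and 538 CPM against 17.5, 956 and 492 CPM. Nrp2, also a gamma marker, stood at 24.3 CPM against 46.5 CPM. Libraries differed both in the share of S2 nuclei with Npas1 and in these markers, and 19 of the 94 came from lumbar/sacral replicate 2, so the split was repeated within the 4 libraries with at least 10 such nuclei. Rbfox3, Sv2b, Glis3 and Stk32a were lower, and Gpr149, Rreb1 and Npas3 higher, in the nuclei with Npas1 in 4 of 4 libraries. Plekhg1, Esrrg and Gfra1 were higher in 3 of 4 libraries each, and Nrp2 in 2 of 4. Within these libraries Rbfox3 was 60.7 to 212 CPM with Npas1 and 119 to 339.6 CPM without. In these 4 libraries the nuclei with Npas1 numbered 12 to 22. How many of all features go the same way in 4 of 4 libraries was not counted. Nuclei are not replicates and the split was not tested, so no subtype is read from it.

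The S2 level of Npas1 varied between libraries with an SD above its mean. It was 9.01, 0 and 4.83 CPM in the libraries labelled cervical replicates 1, 2 and 3, 9.53, 23.8 and 39.6 CPM in thoracic replicates 1, 2 and 3, and 21.03, 85.9 and 4.26 CPM in lumbar/sacral replicates 1, 2 and 3. Lumbar/sacral replicate 2 stood apart, with Npas1 in 19 of 58 S2 nuclei, and without it the S2 mean was 14.0 ± 13.2 CPM (n = 8). The S2 nuclei of that library also had the highest Gpr149, 229 CPM against 29.6 to 143 CPM elsewhere, and the lowest Rbfox3, 107 CPM against 110.0 to 333 CPM. The S2 nuclei of cervical replicate 2, where none of 71 had Npas1 (which allows a share of up to 4.23%), carried markers of the other classes. Their visceral markers Zeb2 and Fbn2 stood at 133 and 71.6 CPM, and their interneuron markers Pax2 and Mpped2 at 45.1 and 88.3 CPM. The visceral markers summed to 205 CPM there, against a median over libraries of 12.4 CPM, while the 4 skeletal markers summed to 277 CPM against a median of 905 CPM. The part of these markers in the S2 values of Npas1 was not tested.

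No difference in Npas1 between regions passed the test. In skeletal MNs its level was 76.7, 62.5 and 51.2 CPM in the libraries labelled cervical replicates 1, 2 and 3, 91.3, 100.1 and 125 CPM in thoracic replicates 1, 2 and 3, and 127, 112 and 82.5 CPM in lumbar/sacral replicates 1, 2 and 3. By these labels the cervical libraries were the lowest. How many genes separate regions in this way was not counted, so nothing is read from that order. The 62.5 and 100.1 CPM of cervical and thoracic replicate 2 belong to the libraries whose labels go against their Hox genes. The lumbar/sacral libraries overlapped the thoracic ones. Lumbar/sacral minus the mean of the other regions was 0.36 ± 0.17 (SE, log2, limma adjusted p = 0.90), in a comparison that called 0.01% of 9999 genes, and it ran from 0.23 without lumbar/sacral replicate 1 to 0.53 without lumbar/sacral replicate 3. Thoracic minus cervical was 0.70 ± 0.20 (SE, log2, limma adjusted p = 0.72), in a comparison that called 0% of 9999 genes, with 607 at an unadjusted p under 0.05. The median of all genes was 0.13 in that comparison, and without replicate 2, which holds both libraries whose labels go against their Hox genes, the Npas1 difference was 0.72 (limma adjusted p = 0.80). It ran from 0.44 without replicate 3 to 0.93 without replicate 1.

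The share of S2 among skeletal MNs varied between libraries, and its ranges overlapped between the labelled regions. S2 made up 27.9 to 42.8% of skeletal MNs in the cervical libraries, 11.4 to 34.6% in the thoracic ones and 9.63 to 33.1% in the lumbar/sacral ones. In replicates 1 and 3 alone it made up 40.3 and 27.9% in cervical, 34.6 and 11.4% in thoracic and 19.6 and 33.1% in lumbar/sacral libraries. The libraries labelled cervical and thoracic replicate 2 had 42.8 and 11.5%. Within clusters, thoracic minus cervical was 0.29 in S1, 0.44 in S3 and 1.59 in S2 (log2), with limma adjusted p = 0.93, 0.94 and 0.54. In S1 the regional means were 102 ± 19.8, 125 ± 21.9 and 133 ± 17.1 CPM in the order cervical, thoracic and lumbar/sacral, and in S3 they were 98.2 ± 34.2, 130.01 ± 13.2 and 128 ± 24.7 CPM (SD, n = 3 each). Without replicate 2, the S1 means were 99.6, 136 and 142 CPM, the S3 means 95.7, 137 and 134 CPM and the S2 means 6.92, 24.6 and 12.6 CPM (n = 2 each). How much of the class difference comes from S2 was not tested beyond these values.

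**Figure D2:**
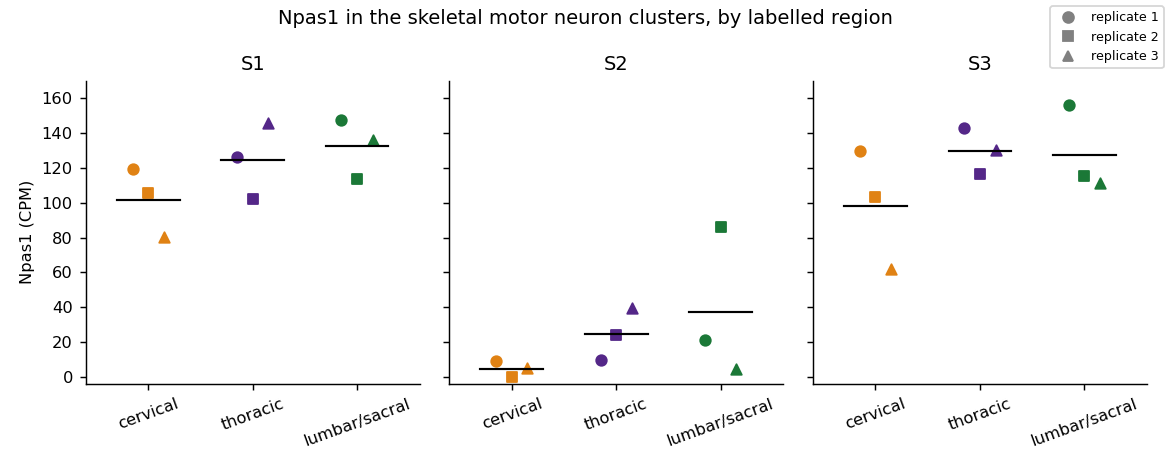
Npas1 (CPM) in the S1, S2 and S3 nuclei of each library, by labelled region. Marker shapes give the replicate and black lines the regional mean. The S2 point of lumbar/sacral replicate 2, at 85.9 CPM, stands above the other S2 libraries, which reach 39.6 CPM at most, while S1 and S3 libraries lie between 61.7 and 156 CPM.

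Shares of skeletal MNs with Npas1 gave no regional call either. They averaged 45.8% in the lumbar/sacral libraries and 49.8% in the others, a difference of -3.96 points (exact permutation p = 0.595, adjusted p = 0.893 over 9 comparisons), or -8.38 points without replicate 2. The sign went against the CPM, and after thinning it turned to 8.88 points, so no order is read from the share. In visceral MNs the share was 1.37% against 0.794% (exact permutation p = 0.0357, adjusted p = 0.214), and without replicate 2 the difference was 0.222 points. The smallest p that 84 groupings of 9 libraries allow is 0.0119. Npas1 was too low in visceral MNs and interneurons to enter the comparison of levels. The male pool minus the female pool gave 0.13 ± 0.17 (SE, log2) for Npas1 in skeletal MNs, with a limma adjusted p of 0.77, in a comparison that called 0.0725% of 9660 genes.

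Npas3 was high in all 3 skeletal clusters and detected, at lower levels, in the other cholinergic clusters. The gamma MNs of S3 held 1852 ± 249 CPM, S1 held 1529.6 ± 183 CPM and the alpha MNs of S2 held 1096 ± 247 CPM (SD, n = 9 libraries each). The order had gaps larger than the larger SD at each step down to the rest: S3 was above S1 in 9 of 9 libraries, S1 above S2 in 8 of 9, and S2 above I4, the next cluster, in 9 of 9. Npas3 was found in 100.0% of S1 nuclei, 98.9% of S2 nuclei and 99.97% of S3 nuclei.

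Outside the skeletal clusters, levels of Npas3 ran from 91.0 CPM in V4 to 423 CPM in I4. The interneuron clusters I4, I3 and I2 held 423 ± 80.7, 357 ± 52.2 and 350.4 ± 86.8 CPM (SD, n = 9 each). The highest visceral clusters were V5 with 302 ± 93.9 CPM (n = 7), V6 with 300.4 ± 118 CPM (n = 8) and V8 with 273 ± 26.0 CPM (n = 3). None of these 18 clusters had a mean that differed from its neighbour's in the order by more than the larger SD. These means rest on each cluster's own libraries. Within the 3 libraries that held both, V8 exceeded I6, the next in the order, by 77.4 ± 22.5 CPM. Shares of nuclei with Npas3 ran from 36.5% in V4 to 88.6% in I4, and over classes Npas3 was found in 99.7% of skeletal MNs, 55.7% of visceral MNs and 69.6% of interneurons. Thinned to an equal total, the class shares were 98.2%, 43.2% and 56.8%. The visceral level of Npas3 was 11.2% of the skeletal one, beside 8.21% for the skeletal marker Tns1. In interneurons the level of Npas3 was 17.3% of the skeletal one and that of Tns1 1.55%. Tns1 thus differed between these classes and gives no single level of free RNA. Whether low counts of Npas3 in visceral MNs or interneurons are expression or free RNA was not tested.

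The counts per nucleus separated the classes more fully than the shares. The median nucleus held 13 corrected counts of Npas3 in S3, 11 in S1 and 8 in S2, against 1 in visceral MNs and 1 in interneurons. At least 3 corrected counts were found in 99.2% of S3, 98.8% of S1 and 89.3% of S2 nuclei, and in 17.7% of visceral MNs and 28.9% of interneurons. By library, skeletal levels ran from 1231 CPM in cervical replicate 2 to 1764 CPM in lumbar/sacral replicate 1, with a median of 1575 CPM. Visceral levels ran from 116 to 245 CPM and interneuron levels from 215 to 315 CPM, so the lowest skeletal library was above the highest of both. The rule selected Npas3 on this contrast, so nothing is read from that separation. The skeletal level less the mean of the others was 2.82 ± 0.17 (log2 of CPM + 5, SD, n = 9), or 7.08-fold on that scale.

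**Figure D3:**
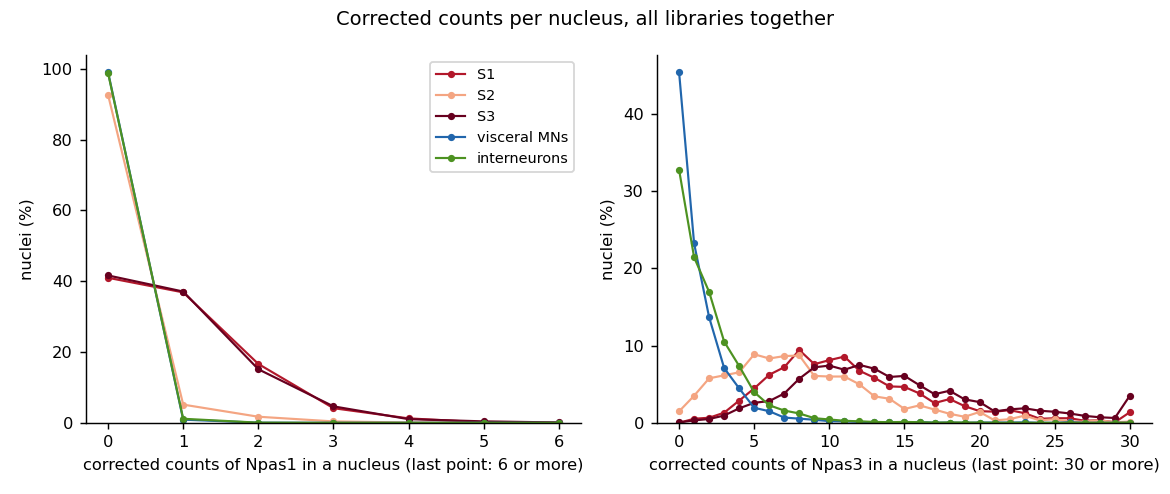
Percent of nuclei (linear axis from 0) with each corrected count of Npas1 (left) and Npas3 (right) in S1, S2, S3, visceral MNs and interneurons, all libraries together. For Npas1, S1 and S3 overlay with 41.0% and 41.6% of nuclei at 0 and S2 at 92.7%; for Npas3, the skeletal curves peak well above 0 and the others at 0.

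Within S2, Npas3 was lowest in cervical replicate 2. It was 1054, 564 and 1203 CPM in the libraries labelled cervical replicates 1, 2 and 3, 1457, 1024 and 1280.5 CPM in thoracic replicates 1, 2 and 3, and 1067, 1209 and 1006 CPM in lumbar/sacral replicates 1, 2 and 3. Cervical replicate 2 is the library whose S2 nuclei carried visceral and interneuron markers, and without it the S2 mean was 1163 ± 155 CPM (n = 8). S3 libraries ran from 1522 to 2179 CPM and S1 libraries from 1252 to 1728 CPM.

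Npas3 gave no call between regions or pools. In skeletal MNs, lumbar/sacral minus the other regions was 0.08 ± 0.15 and thoracic minus cervical was -0.01 ± 0.17 (SE, log2), with limma adjusted p = 0.92 and 0.98. The direction of both differences turned in some alternatives, and without replicate 2 they were -0.022 and -0.098 (limma adjusted p = 0.9999 and 0.92). In visceral MNs, lumbar/sacral minus the other regions was 0.36 ± 0.19 (SE, log2, limma adjusted p = 0.52), with 245, 158 and 204 CPM in lumbar/sacral replicates 1, 2 and 3 and 116 to 210.0 CPM in the other libraries. Without the libraries labelled cervical and thoracic replicate 2 it was 0.21 (limma adjusted p = 0.61). That comparison called 4.27% of 10031 genes, 233 higher and 195 lower. In interneurons, lumbar/sacral minus the other regions was 0.10 ± 0.10 (SE, log2, limma adjusted p = 0.9997), in a comparison that called 0.051% of 9805 genes, and thoracic minus cervical was -0.27 ± 0.12 (SE, log2, limma adjusted p = 0.94), or -0.33 without replicate 2 (limma adjusted p = 0.73). The male pool minus the female pool was -0.39 ± 0.13 in visceral MNs (SE, log2, limma adjusted p = 0.32), in a comparison that called 0.0513% of 9744 genes. The share of interneurons with Npas3 was 61.5% in lumbar/sacral libraries and 73.7% in the others (exact permutation p = 0.0476, adjusted p = 0.214), and thinned to an equal total the difference of -12.2 points was -2.43 points. Without replicate 2 and not thinned it was -12.4 points.

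Npas2 followed another pattern, without a skeletal preference. It was highest in the visceral clusters V8, with 64.1 ± 28.2 CPM (SD, n = 3 libraries), and V4, with 49.96 ± 28.7 CPM (n = 9), and then in the interneurons of I1, with 27.0 ± 9.28 CPM (n = 9). It was lowest in I8, V7 and V1, with 1.18 ± 2.32, 3.16 ± 4.16 and 4.73 ± 5.98 CPM. The skeletal clusters lay between, with 17.1 ± 6.26 CPM in S1, 14.7 ± 3.70 CPM in S2 and 8.07 ± 2.90 CPM in S3. In the order from V8 to I8, no cluster mean differed from its neighbour's by more than the larger of their SDs, so these means do not tell neighbouring ranks apart. The means rest on each cluster's own libraries, and V8 and V4 are set side by side within shared libraries below.

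V8 consisted almost wholly of lumbar/sacral nuclei. In the 3 libraries with enough of them, lumbar/sacral replicates 1, 2 and 3, Npas2 stood at 59.1, 38.7 and 94.4 CPM in V8 and at 22.0, 29.3 and 36.6 CPM in V4. V8 was the higher in each, by 34.8 ± 24.3 CPM. In V4, the cervical libraries held 65.8, 32.4 and 118 CPM in replicates 1, 2 and 3, and the thoracic ones 50.7, 51.4 and 43.5 CPM. The 118 CPM of cervical replicate 3 rest on 30 nuclei, 17 of them with Npas2. The share of nuclei with Npas2 was 27.6% in V4, 24.3% in V8 and 18.2% in I1, and after thinning 17.3%, 23.2% and 10.999%.

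Over classes, Npas2 stood at 12.5 ± 3.01 CPM in skeletal MNs, 21.3 ± 9.61 CPM in visceral MNs and 17.2 ± 4.11 CPM in interneurons (SD, n = 9 each). Skeletal MNs less the mean of the others was -0.43 ± 0.32 (log2 of CPM + 5), with that sign in 9 of 9 libraries. How many features keep their sign in 9 of 9 libraries was not counted. By this difference Npas2 had rank 9728 of 11292 features, counted from the highest. It was not among the 4.64% of features that were lower by at least 1. In visceral MNs Npas2 was 29.4, 20.9 and 41.3 CPM in lumbar/sacral replicates 1, 2 and 3. It was 19.4, 9.56 and 25.7 CPM in cervical and 14.8, 16.1 and 14.8 CPM in thoracic replicates 1, 2 and 3. Lumbar/sacral minus the other regions was 0.71 ± 0.25 (SE, log2, limma adjusted p = 0.22), and the groups overlapped. Within each pool the lumbar/sacral library was the highest, and how many genes share that order was not counted. With the replicate as a block, which pairs the regions of a pool, the limma adjusted p was 0.0707. Without the libraries labelled cervical and thoracic replicate 2 the difference was 0.57 (limma adjusted p = 0.26).

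The makeup of the visceral class differed between these regions. V8 made up 25.8 to 33.4% of visceral MNs in the lumbar/sacral libraries and 0 to 0.279% in the others. Giving equal weight to V1, V2, V3, V4 and V7, which leaves out V8 and also V5, V6, V9 and V10, the difference was -0.27 (limma adjusted p = 0.95). The part of V8 in the class difference was not tested. The lumbar/sacral difference in visceral MNs exceeded that in skeletal MNs by 0.61 on the log2 scale, which did not pass the test (exact permutation p = 0.119, adjusted p = 0.196 over 6 comparisons of classes for Npas2 and Npas3). No share of nuclei with Npas2 was called between regions.

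The level of Npas2 in skeletal MNs was lowest in the mixed pool of mice in each region, which was noticed in the data and not tested. The mixed pool held 9.26 CPM in its cervical library, 9.16 CPM in its thoracic library and 9.10 CPM in its lumbar/sacral library. In the same order, the male pool held 13.4, 12.3 and 14.99 CPM and the female pool held 11.8, 16.9 and 16.1 CPM. All libraries of the mixed pool lay below the other 6, as they did for 4.43% of 9999 genes in skeletal MNs. In interneurons the mixed pool had 10.9, 11.8 and 15.4 CPM, and 1 library of the male pool, at 14.8 CPM, overlapped it, where 7.85% of genes lay wholly below. In visceral MNs the pools overlapped too, where 7.36% of genes lay wholly below. The difference between the male and female pools did not pass the test, with a difference of -0.10 ± 0.17 in skeletal MNs (SE, log2, limma adjusted p = 0.83). In interneurons it was -0.20 ± 0.14 (SE, log2, limma adjusted p = 0.55), in a comparison that called 0.0521% of 9594 genes. In visceral MNs it was -0.61 ± 0.26 (SE, log2, limma adjusted p = 0.38), with means of 15.5 CPM in the male and 27.2 CPM in the female pool.

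Per1, a clock gene whose transcription NPAS2 and CLOCK can drive, was higher in the same pool in skeletal and visceral MNs. It was chosen after its values were seen. Its skeletal level was 30.4 to 33.6 CPM in the 3 libraries of the mixed pool and 6.68 to 20.1 CPM in the other 6. In visceral MNs it stood at 19.5, 28.6 and 28.4 CPM in the mixed pool and at 6.85 to 10.6 CPM in the others. In both classes all libraries of the mixed pool lay above the others, as they did for 10.2% of genes in skeletal MNs and 8.58% in visceral MNs. In interneurons Per1 was below the filter and the pools overlapped. It stood there at 14.4, 9.93 and 9.18 CPM in the mixed pool and at 3.42 to 9.41 CPM in the others. Of 15 clock genes that passed the filter in skeletal MNs, 2 lay wholly above in the mixed pool (Per1 and Cry2) and 0 wholly below. In visceral MNs 1 of 13 lay wholly above (Per1) and 1 wholly below (Bhlhe41), and in interneurons 1 of 12 lay wholly above (Csnk1e), where 7.27% of all genes did. Clock was listed with the bHLH-PAS genes and coactivators, of which 10 passed the filter in each class. In visceral MNs 2 of these lay wholly above (Arnt and Clock) and 1 wholly below (Ahr). In skeletal MNs 1 lay wholly above (Arnt) and 0 below. The hour at which each pool was collected was not given in the sources used here.

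**Figure D4:**
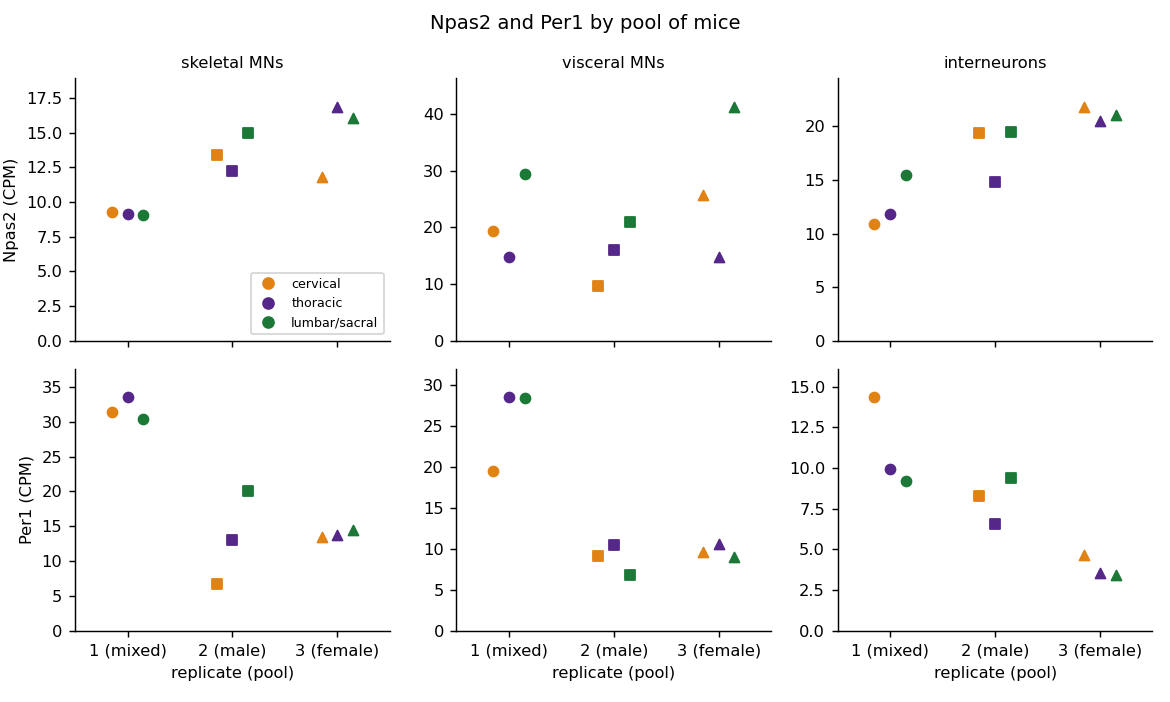
Npas2 (top) and Per1 (bottom) in CPM, linear axes from 0, in the skeletal MNs, visceral MNs and interneurons of each library, by pool. Colours give the labelled region and shapes the replicate. In skeletal MNs the mixed pool lies lowest for Npas2, at 9.10 to 9.26 CPM, and highest for Per1, at 30.4 to 33.6 CPM.

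The partner genes Arnt, Arnt2 and Arntl, and Clock, the nearest relative of Npas2, were present in all classes. Arnt stood at 97.1 CPM in skeletal MNs, 110.2 CPM in visceral MNs and 105 CPM in interneurons. Clock stood at 133, 140.3 and 144 CPM in that order. Arnt2, a partner of NPAS1 and NPAS3 that is rich in neurons, stood at 284 ± 45.6 CPM in skeletal MNs against 108 ± 9.39 and 132 ± 12.3 CPM, a difference of 1.203 ± 0.23 (log2, SD) that held in 9 of 9 libraries. Arntl, which encodes BMAL1, stood at 86.7 ± 12.4 CPM against 43.9 ± 5.29 and 43.3 ± 3.71 CPM, a difference of 0.91 ± 0.21. Arnt2 thus had a smaller difference than Npas1 and Npas3, with the same sign. Arnt, the other gene for a partner of NPAS1 and NPAS3, had -0.14 ± 0.11 (log2, SD) and was lower in 9 of 9 libraries. BMAL1 is the partner of NPAS2, and Npas2 had the other sign from Arntl, at -0.43.

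Among the other bHLH-PAS genes and coactivators, 16 were listed and 11 passed the filter. Their median difference between skeletal MNs and the others was 0.08 (log2), against -0.01 for all 11292 features. Arnt2 was the 1 gene of the 11 that was higher by at least 1, where 5.54% of all features were. The coactivator Ncoa1 was next after Arntl with 0.78 ± 0.08, and Arntl2, a relative of Arntl, had 0.51 ± 0.26. Npas4, the activity-induced relative of the members, had -0.67 ± 0.22, with 3.46 CPM in skeletal MNs, 9.36 CPM in visceral MNs and 7.98 CPM in interneurons. Sim1, Sim2, Epas1, Hif3a and Ahrr were below the filter.

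Of 23 clock genes listed, 22 were in the matrix and 16 passed the filter. Their median difference was 0.36 (log2), with 2 genes higher by at least 1 and 1 lower by at least 1. The nuclear receptor Rora was far the most abundant, with 5420 ± 693 CPM in skeletal MNs, 360.4 ± 69.4 CPM in visceral MNs and 1523 ± 328 CPM in interneurons, a difference of 2.88 ± 0.21. The repressor Cry2 had a difference of 1.16 ± 0.28, and the related receptor Rorb one of -1.30 ± 0.82. The repressor Bhlhe40 had a difference of 0.88 ± 0.17.

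**Figure D5:**
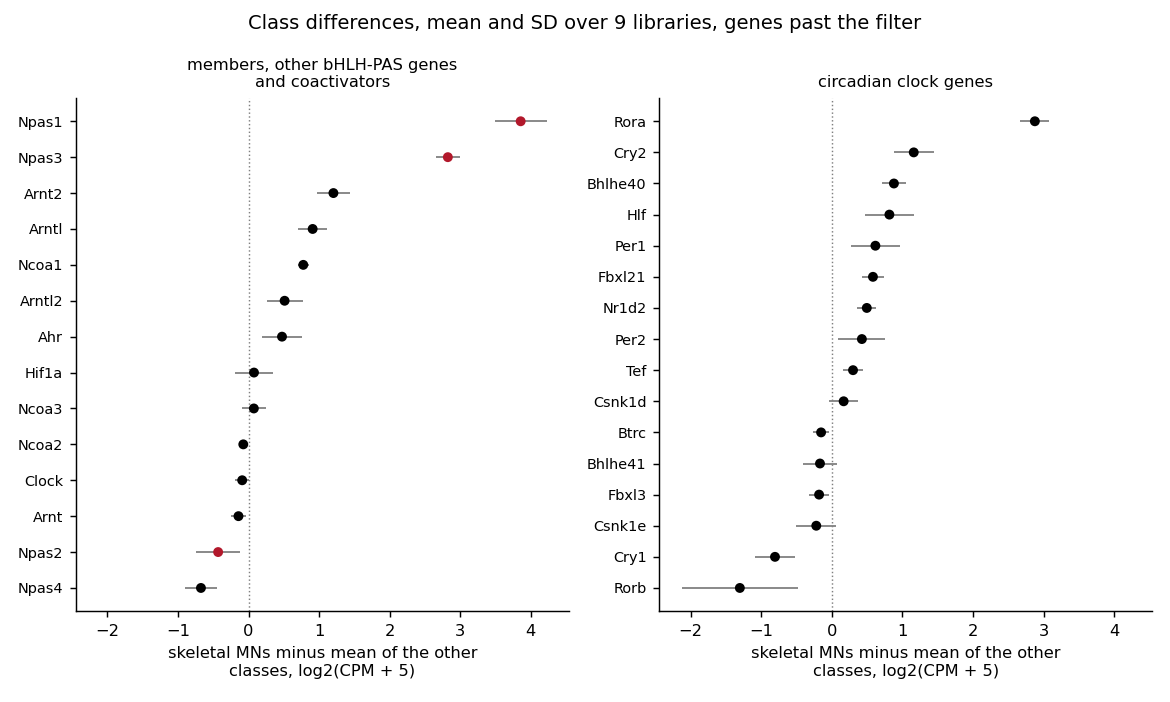
Skeletal MNs minus the mean of visceral MNs and interneurons on the scale of log2(CPM + 5), mean (points) and SD (lines) over 9 libraries, for the members in red with the other bHLH-PAS genes and coactivators (left) and for clock genes (right), each past the filter of 10 CPM. Npas1 and Npas3 lie at 3.86 and 2.82 and Npas2 at -0.43, while Rora lies at 2.88 and Arnt2 at 1.203.

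Between regions, 1 of 10 bHLH-PAS genes and coactivators and 1 of 13 clock genes passed the test, both in visceral MNs in the comparison of lumbar/sacral with the other regions that called 4.27% of 10031 genes. The coactivator Ncoa3 was lower in lumbar/sacral libraries, at 57.1 CPM against 88.7 CPM, by -0.59 ± 0.11 (SE, log2, limma adjusted p = 0.0168). No gene of its list was called with scaling by the median of ratios, with clusters weighted equally or in 6 of the 12 fits that left out a library or a replicate. Per2 was lower too, at 9.22 CPM against 17.7 CPM, by -0.68 ± 0.15 (SE, log2, limma adjusted p = 0.037), and no gene of its list was called with no filter, with clusters weighted equally, without the libraries labelled cervical and thoracic replicate 2 together, or in 11 of those 12 fits. In skeletal MNs and interneurons, and between thoracic and cervical or between male and female pools, none of the listed genes passed. Those comparisons called 0 to 0.0725% of all genes, with 160 to 1388 genes at an unadjusted p under 0.05.

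Per kilobase of gene span, the order of Npas1 and Npas3 turned in S1 and S3 and not in S2. In S1, Npas1 stood at 5.44 CPM per kb, Npas3 at 1.86 CPM per kb and Npas2 at 0.101 CPM per kb, whereas in CPM Npas3 exceeded Npas1. In S2, Npas3 was the higher on both scales, with 1.33 CPM per kb against 0.999 CPM per kb for Npas1. In visceral MNs the values were 0.0630 for Npas1, 0.126 for Npas2 and 0.210 CPM per kb for Npas3. Whether corrected counts scale with gene span was not tested, so no order of abundance between the genes is read from either scale.

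Joint detection of the members in a nucleus was set beside the product of their separate shares, without a test. In S1, 9.43 ± 4.83% of nuclei held both Npas1 and Npas2 (SD, n = 9 libraries), where the product of the shares was 8.51%. In S3 the values were 5.23 ± 4.84% and 4.57%, and the joint share was above the product in 7 of 9 libraries in S1 and in 7 of 9 in S3. Since nearly every skeletal nucleus had Npas3, nuclei with Npas1 in S1 all had Npas3 too. In V8, 17.8 ± 5.18% held Npas2 and Npas3 (n = 3) against a product of 17.1%, and in I1 10.3 ± 10.8% (n = 9) against 11.9%, above the product in 0 of 9 libraries.

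Over the 21 cluster means on the log2(CPM + 5) scale, Npas1 and Npas3 had a Pearson r of 0.83 and a Spearman rho of 0.35, and Npas2 had an r of -0.06 with Npas1 and 0.01 with Npas3. Npas1 and Npas3 were both highest in the 3 skeletal clusters, and all clusters share their libraries and depth. Both were selected on that skeletal level, so nothing is read from their r. Likeness of other genes to Npas1 or Npas3 is measured on the same selected pattern. Of 10842 genes compared, those most like Npas1 were Esrrb (r = 0.95), Pou3f2 (0.95), Gigyf2 (0.93), Ackr3 (0.93) and Hs3st3a1 (0.92). The nuclear receptor gene Esrrb stood at 182 CPM in S1, 59.1 CPM in S2 and 214 CPM in S3, and at most at 9.89 CPM elsewhere. Pou3f2, a POU factor gene, stood at 99.0, 31.2 and 68.5 CPM, and at most at 10.1 CPM elsewhere. The genes most like Npas3 were Ttll5 (r = 0.87), Gigyf2 (0.87), A930009A15Rik (0.86), Atp2b3 (0.86) and Slmap (0.86). Likeness to Npas2 was weaker, with Ppme1 (r = 0.71), Gucy1a1 (0.71), Atp6v1f (0.66), Cd46 (0.65) and Pgls (0.65). By Spearman correlation of CPM, 0, 1 and 0 of the 5 genes remained for Npas1, Npas2 and Npas3, so these names depend on the measure.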

How the data were processed

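Single-nucleus RNA sequencing of GFP+ nuclei was done with 10x Genomics chemistry in 9 libraries. The authors assigned reads to genes with Cell Ranger 3.1.0 (also in the submitters' processing notes), using a pre-mRNA version of GRCm38 so that introns were counted. The authors removed outlying nuclei and normalized each barcoded region apart with SCTransform in Seurat. The deposited values are the authors' corrected counts, whole numbers made by a model, so they were treated as a score and not as raw counts, and no count model was run. The authors' labels of 34231 nuclei gave library, class and cluster. Corrected totals per nucleus lay in a narrow range within a library and differed between libraries, also of 1 region (5492 to 7739 in cervical replicate 1, 12685 to 16554 in cervical replicate 2), so levels set across libraries carry that step.

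Corrected counts were summed per library and class or cluster with at least 10 nuclei and scaled to CPM. Regions and pools were compared with limma 3.58.1 (R 4.3.3), with a trend, on log2(CPM + 5), after a filter that kept genes reaching 10 CPM in 3 or more sums, adjusted after Benjamini and Hochberg over all of them, with calls under 0.05. Fold changes on this scale understate those of low genes. Region fits used 9 libraries with no block. Pool fits used 6 libraries with a region term. Shares were compared by two-sided exact permutation tests over 84 groupings, adjusted over 9. The numbers pair libraries, since the regions of a replicate come from the same mice. Deviations of same-numbered libraries correlated at 0.51 to 0.87 in skeletal MNs for replicates 1 and 2 and at -0.22 to 0.75 for replicate 3. The replicates are pools of mice, so p-values between regions measure the spread between these pools. Male against female sets 1 pool against 1 other, with the 3 libraries of each as its replicates. Those p-values measure the spread between libraries of the same pool and hold no spread between pools. Intervals and limits at 0 cover counting error only.

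Library medians ran from 4712 to 16127 corrected counts per nucleus. Thinning to 4600 left out 8.63% of nuclei, of which most were in the lumbar/sacral region (44.1% of replicate 1, 13.6% of replicate 3). Scrublet called 164 nuclei (1.02%) as doublets, which were kept except in an alternative. Python 3.11.15 with scanpy 1.11.5 was used for the rest, with seed 1. In simulated data with the layout of the lumbar/sacral comparison, limma recovered 86 to 100% of 50 genes changed by 2-fold and 50 to 56% of 50 changed by 1.5-fold in each class, among 9467 to 9691 genes. The simulated libraries were independent, with the same spread setting for every gene and no effect of the pool. These shares therefore do not give the recovery in the real libraries, and nothing is read from them about genes not called. Sequences are RefSeq promoters of GRCm38.p6.

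The members, gene lists and tests were chosen with earlier results of these data known. Named were the members, Arnt, Arnt2, Arntl and Clock, the 5 genes of each list with the largest class difference, listed genes called between regions or pools, and the 5 genes most like each member. Some genes of these lists are not reported here. The alternatives were another scaling, filters, pseudocounts, leaving out doublets or libraries, single or equally weighted clusters, the replicate block, thinning and a minimum of 2 counts. Leaving out 2 libraries together, the comparison of region differences between classes, the split of S2 within libraries, S1 to S3 without replicate 2 and the counts over pools were chosen after the data were seen.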

Additional observations from a re-analysis of the deposited data

Results flagged for a closer look

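In 8 of 66 sets of libraries, 1 library lay apart from the rest by more than the 95% limit for a gap at the end of the range, where chance gives about 1 in 20. In S2, Npas1 was highest in lumbar/sacral replicate 2 with 85.9 CPM over 58 nuclei, and Npas3 was lowest in cervical replicate 2 with 564 CPM over 71 nuclei. For Npas1 in V1 and V6, lumbar/sacral replicate 2 was the high library, with 5.66 CPM over 26 nuclei and 14.7 CPM over 10 nuclei. The highest share of nuclei with Npas1 in any library was 3.85% in V1 and 10% in V6. Both values thus rest on very few nuclei, and no excess over the whole library is read from them. For Npas2, cervical replicate 3 was high in V4 with 118 CPM over 30 nuclei, lumbar/sacral replicate 1 was high in V1 with 19.6 CPM over 23 nuclei, and lumbar/sacral replicate 1 was low in V6 with 0 CPM over 13 nuclei. These Npas2 values in V1 and V6 rest on few nuclei too. The highest library share of Npas2 in V1 was 8.70%, and 9.28% of pooled V6 nuclei had it. For Npas3, lumbar/sacral replicate 1 was high in V7 with 295 CPM over 20 nuclei. What sets these libraries apart was not tested.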

How the results depend on the processing

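The 21 differences in a member between regions or pools gave 0 calls in 383 alternatives, and the class differences of Npas1, Npas2 and Npas3 kept their sign in each alternative. The replicate block, which pairs the regions of a pool, changed no member's call. Under it the genes called between lumbar/sacral and the other regions went from 1 to 4 in skeletal MNs, 428 to 737 in visceral MNs and 5 to 44 in interneurons, and the visceral difference of Npas2 had an adjusted p of 0.0707 and that of Npas3 one of 0.0848. The causes of the changes that follow were not tested.

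Small skeletal differences turned sign (log2). For lumbar/sacral against the others, Npas2 was -0.013 with scaling by the median of ratios and -0.081 in S3 alone, and Npas3 was -0.076 and -0.0088 in these and -0.024 without cervical and thoracic replicate 2. For thoracic against cervical, Npas2 was -0.023 with scaling by the median of ratios and -0.088 in S3 alone, and Npas3 was 0.47 in S2 alone. The visceral lumbar/sacral difference of Npas2 was -0.27 with clusters weighted equally. The Npas1 class difference was 5.23 with a pseudocount of 1 and 2.34 with 20.

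Counts of genes called moved more. For lumbar/sacral in skeletal MNs there were 12 with no filter, 7 in S3 alone, and 0 in S1 alone, in S2 alone, with a pseudocount of 1 or with 10 corrected counts required in every sum. That stricter filter also gave 0 for male against female in all 3 classes. Visceral lumbar/sacral calls were 96 with clusters weighted equally. Interneuron lumbar/sacral calls were 3 with scaling by the median of ratios, 2 with the stricter filter, 2 with a pseudocount of 1, 1 with clusters weighted equally and 13 without cervical and thoracic replicate 2, and male against female gave 8 with scaling by the median of ratios.

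Leaving out replicates, lumbar/sacral differences in skeletal MNs ran from -0.012 to 0.28 for Npas2 and -0.022 to 0.18 for Npas3, and thoracic minus cervical from -0.067 to 0.25 and -0.15 to 0.15. Male minus female in skeletal MNs ran from -0.022 to 0.34 for Npas1, -0.21 to 0.025 for Npas2 and -0.26 to 0.072 for Npas3, and in interneurons from -0.12 to 0.054 for Npas3. Thoracic minus cervical for Npas2 ran from -0.47 to 0.12 in visceral MNs and -0.33 to 0.052 in interneurons. Genes called ran from 0 to 1 for both skeletal region comparisons, 0 (without replicate 3) to 471 for visceral lumbar/sacral and 0 to 9 for interneuron lumbar/sacral. For male against female they ran from 0 to 1329 in skeletal MNs, 0 to 425 in visceral MNs and 0 to 1331 in interneurons, each highest without cervical replicate 3.

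Thinned shares were 33.5% and 0.565% for Npas1 in skeletal MNs and interneurons, 5.59% and 8.13% for Npas2 in skeletal and visceral MNs, and 98.2%, 43.2% and 56.8% for Npas3 over the 3 classes. With at least 2 corrected counts, skeletal, visceral and interneuron shares were 19.8%, 0.0206% and 0.0201% for Npas1, 1.16%, 2.87% and 2.18% for Npas2, and 98.8%, 32.2% and 49.6% for Npas3. Thinning turned the lumbar/sacral share differences to 8.88 points for Npas1, 1.40 for Npas2 and 1.59 for Npas3 in skeletal MNs, 1.75 for Npas2 in interneurons and 10.995 for Npas3 in visceral MNs, and the minimum of 2 turned those in visceral MNs to -0.0310 for Npas1 and -0.142 for Npas2. Without replicates they ran from -8.38 to 1.84 for Npas1 in skeletal MNs, -0.541 to 0.532 for Npas1 in interneurons and -1.88 to 0.0147 for Npas3 in visceral MNs. Depth limits the shares most in the lumbar/sacral libraries, of replicates 1 and 3, whose totals per nucleus were lowest.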
